A study of Arabidopsis thaliana with 12 samples.

Results

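SAUR genes (SMALL AUXIN UP RNA) were measured by 22 of the 16764 probe sets on ATH1 arrays of Arabidopsis shoots, and most of them had lower signals in mutants of the chromatin remodeler BRAHMA, of gibberellin synthesis, or of both. A probe set was taken when it stood for a single gene whose symbol, synonym or description holds SAUR. The gene reference lists 80 SAUR genes, and for 58 of these no single-gene probe set was named here. Of the 22 genes, SAUR10 and SAUR57 were named through the platform annotation and the other 20 only through the study's supplementary gene lists, which hold genes that the study called changed against the wild type. For those 20 genes a difference from the wild type is therefore a description of how they were chosen, and it supports nothing further. One more probe set stands for both SAUR62 (AT1G29430) and SAUR75 (AT5G27780) and was kept apart.

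Each of 4 genotypes was measured on 3 arrays, each array a biological replicate of shoots from 18-d-old seedlings grown at the same time on sucrose-containing agar. The genotypes were the wild type Col-0 (wt), brm-1, ga1-3 and the ga1-3/brm-1 double mutant, all in the Col-0 ecotype. BRM encodes a SWI/SNF chromatin remodeling ATPase, brm-1 is a null allele, and since the homozygotes are sterile they were picked by genotyping a segregating progeny. GA1 encodes an early enzyme of gibberellin biosynthesis, and ga1-3 had been introgressed into Col-0. Seeds of the lines that carry ga1-3 were imbibed in gibberellin and washed before sowing, so this treatment and the ga1-3 allele cannot be told apart. The log2 signals of BRM itself averaged 2.89 ± 0.11 (SD, n = 3) on the brm-1 arrays and 2.88 ± 0.14 on those of ga1-3/brm-1, against 7.88 ± 0.06 for the wild type and 8.14 ± 0.19 for ga1-3, which matches the labels.

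SAUR genes encode small plant-specific proteins whose transcripts appear soon after auxin is given, and other signals that control cell expansion, such as gibberellin, brassinosteroid, light and temperature, act on many of them. The best studied members bind and inhibit phosphatases of the PP2C.D clade, which keeps proton pumps of the plasma membrane active, acidifies the cell wall and lets the cell expand. Many SAUR genes lie in tandem clusters of near copies on the chromosome.

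All values are log2 signals after GC-RMA as deposited, so a difference of 1 is a doubling of signal. All 12 arrays entered 1 linear model fit of each probe set with limma, and a change was called at a Benjamini-Hochberg adjusted p under 0.05 over all 16764 probe sets together with a fold change over 1.5. Means under 4.70 (the 26th percentile of all signals) are called near background, where a further fall, even a called one, cannot be read firmly. The level comes from a table already filtered for detection and is no measured background. BRM, for example, averaged 2.89 in brm-1. Signals of different probe sets depend on the probes, so levels were compared only between genotypes. In bulk shoots, fewer cells of a type and less RNA per cell cannot be told apart.

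SAUR10 (AT2G18010), SAUR7 (AT2G21200), SAUR27 (AT3G03840) and SAUR33 (AT3G61900) lay near background in all 4 genotypes. In the double mutant 10 further genes were near background, namely SAUR63, SAUR64, SAUR65, SAUR68, SAUR56, SAUR46, SAUR57, SAUR9, SAUR44 and SAUR23.

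**Figure D1:**
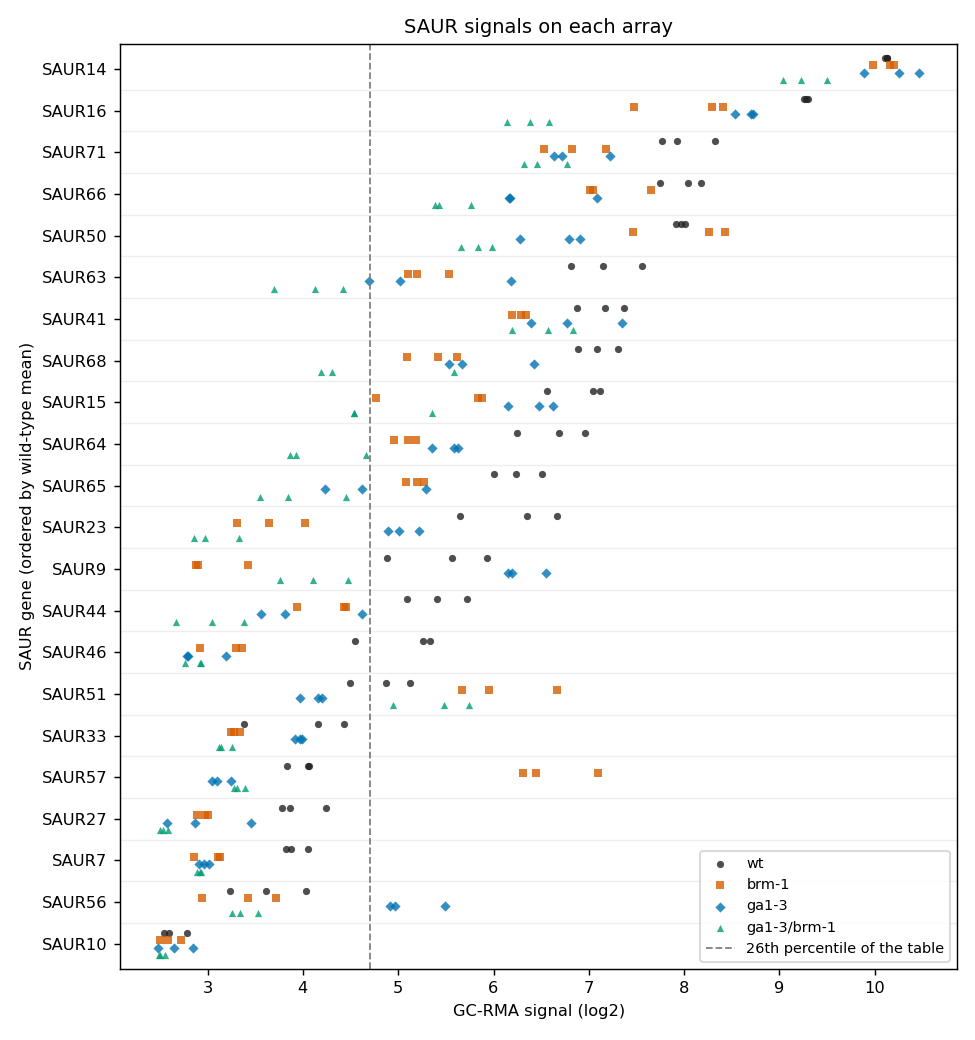
Log2 GC-RMA signal (x axis) of each of the 22 SAUR genes (y axis, ordered by wild-type mean) on the 12 arrays. Each point is 1 array, colours and shapes mark the 4 genotypes, and the dashed line is the near-background level of 4.70. The double mutant (triangles) sits at the left end for most genes, while SAUR57 in brm-1 (6.31 to 7.09) and SAUR56 in ga1-3 (4.92 to 5.49) stand to the right of all other genotypes.

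SAUR23 (AT5G18060) belongs to the SAUR19 subfamily, the group for which inhibition of PP2C.D phosphatases was first worked out. Its signals were 5.65, 6.66 and 6.35 on the wild-type arrays, 5.22, 4.89 and 5.01 in ga1-3, 4.03, 3.31 and 3.64 in brm-1, and 3.33, 2.86 and 2.98 in the double mutant. The wild type, ga1-3 and brm-1 did not overlap, whereas the lowest brm-1 array fell within the range of the double mutant. The order of the means was wild type (6.22 ± 0.52, SD, n = 3), ga1-3 (5.04 ± 0.16), brm-1 (3.66 ± 0.36) and ga1-3/brm-1 (3.05 ± 0.24).

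Against the wild type SAUR23 differed by -1.18 ± 0.26 (standard error) in ga1-3, by -2.56 ± 0.26 in brm-1 and by -3.17 ± 0.26 in the double mutant. The ga1-3 call was lost without wild-type replicate 3 (-1.12) or ga1-3 replicate 2 (-1.11, adjusted p up to 0.0517). The signal was lower in brm-1 than in ga1-3 by 1.38 log2 units (difference -1.38 ± 0.26, adjusted p = 0.00372) and lower in the double mutant than in ga1-3 (-1.99 ± 0.26, adjusted p = 0.000341). The neighbours at the low end, brm-1 and the double mutant, were not separated by the test (-0.61 ± 0.26, 95% interval -1.18 to -0.04 before adjustment, adjusted p = 0.143). Both lay near background. The probe set of SAUR23 carries the suffix of sets with probes that can also bind other transcripts, and binding of its near copies was not tested.

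SAUR63 sits in 1 tandem cluster on chromosome 1 that holds 8 SAUR genes in the reference. Of these, SAUR63 (AT1G29440), SAUR64 (AT1G29450), SAUR65 (AT1G29460), SAUR66 (AT1G29500) and SAUR68 (AT1G29510, which also carries the name SAUR67) had a probe set of their own. SAUR63 and its close relatives promote elongation of hypocotyls and stamen filaments.

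SAUR63 gave 7.56, 7.15 and 6.81 on the wild-type arrays, 4.70, 5.02 and 6.18 in ga1-3, 5.19, 5.10 and 5.54 in brm-1, and 4.42, 3.69 and 4.12 in the double mutant. The wild-type arrays lay above and the double-mutant arrays below those of both single mutants, which overlapped each other. The means were 7.18 ± 0.37 in the wild type, 5.30 ± 0.78 in ga1-3, 5.28 ± 0.23 in brm-1 and 4.08 ± 0.37 in the double mutant. The single mutants, neighbours in this order, differed by -0.02 ± 0.35 (brm-1 minus ga1-3, 95% interval -0.80 to 0.76, adjusted p = 0.983). From the wild type SAUR63 differed by -1.88 in ga1-3, by -1.90 in brm-1 and by -3.09 in the double mutant, each ± 0.35. The double mutant was lower than ga1-3 (-1.22 ± 0.35, adjusted p = 0.0222) and lower than brm-1 (-1.20 ± 0.35, adjusted p = 0.0464). The latter call was lost when any array except ga1-3 replicates 1 and 3 was left out (adjusted p up to 0.132), and the former without replicate 2 (-1.02, adjusted p = 0.0767) or 3 (-1.24, adjusted p = 0.0527) of the double mutant.

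The other genes of the cluster had the same order at its ends, with the highest mean in the wild type and the lowest in the double mutant. SAUR64 had means of 6.63 in the wild type, 5.52 in ga1-3, 5.09 in brm-1 and 4.15 in the double mutant, and the double mutant was below both ga1-3 (-1.37 ± 0.22, adjusted p = 0.00122) and brm-1 (-0.93 ± 0.22, adjusted p = 0.0211). SAUR65 had 6.25 in the wild type, 4.71 in ga1-3, 5.18 in brm-1 and 3.95 in the double mutant. SAUR66 had 7.99, 6.48, 7.23 and 5.53 in the same order of genotypes, and it was lower in the double mutant than in brm-1 (-1.71 ± 0.26, adjusted p = 0.00297) and than in ga1-3 (-0.95 ± 0.26, adjusted p = 0.0176). For SAUR66 the difference between brm-1 and the wild type (-0.75 ± 0.26) was not called. SAUR68 had 7.09 in the wild type, 5.87 in ga1-3, 5.38 in brm-1 and 4.69 in the double mutant, and its ga1-3 difference of -1.22 ± 0.35 lost its call when any array except ga1-3 replicate 3 and replicates 1 and 3 of the double mutant was left out (adjusted p up to 0.144). In the comparison of the double mutant with ga1-3, SAUR65 missed the threshold (-0.76 ± 0.28, adjusted p = 0.0553), and in that with brm-1 SAUR68 missed it (-0.68 ± 0.35, adjusted p = 0.233). The probe set shared by SAUR62 and SAUR75 had means of 8.87, 6.37, 6.87 and 4.75 in the wild type, brm-1, ga1-3 and the double mutant, a difference of -4.12 ± 0.34 in the double mutant.

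Near copies can share probes, and cross-hybridisation within the cluster was not tested. Over the 12 arrays, which share the genotype differences, the 13 pairs of genes from the same tandem cluster (10 from the SAUR63 group and 3 among SAUR14, SAUR15 and SAUR16) had a median Pearson r of 0.91 (0.733 to 0.953). After the genotype means were taken off, their median r was 0.58 (0.249 to 0.879). For the other 218 pairs these medians were 0.54 and 0.07.

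Within ga1-3, 1 array carried much of the spread of the SAUR63 group, SAUR64 excepted. Replicate 1 of the double mutant deviated too, with 4 of the 5 genes above their mean and deviations of -0.10 to 0.89. On ga1-3 replicate 3 all 5 genes lay above their ga1-3 mean, by 0.06 to 0.88 with a median of 0.58, and the probe set of SAUR62 and SAUR75 lay 0.85 above it. Of the 17 other SAUR genes 10 lay above their mean on that array, with a median of 0.06, and SAUR44 (0.62) and SAUR41 (0.51) were the furthest above. The same array had the highest differences between 3′ and 5′ control probe sets of the 12 (6.38 for actin, 3.71 for GAPDH and 1.46 for ubiquitin, against 5.44 to 5.97, 2.66 to 3.45 and 0.99 to 1.40 on the others), a measure of RNA integrity and labelling, and their part in the result was not tested. Without that array SAUR63 differed from the wild type by -2.32 in ga1-3 and the double mutant from ga1-3 by -0.78 (adjusted p = 0.0496), and the calls of SAUR68 and SAUR44 between the double mutant and ga1-3 were lost (-0.90, adjusted p = 0.0931 and -0.65, adjusted p = 0.0782).

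**Figure D2:**
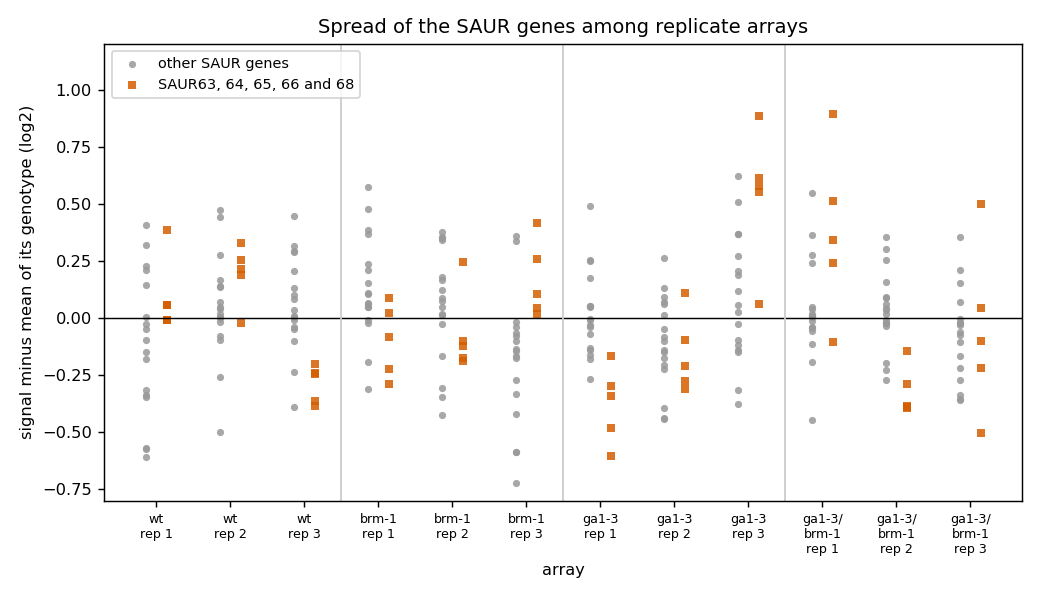
Log2 signal of each SAUR gene minus the mean of its genotype (y axis) on each of the 12 arrays (x axis, grouped by genotype). Squares are the 5 genes of the SAUR63 group and circles the 17 other SAUR genes. On ga1-3 replicate 3 the squares reach 0.88 above 0, and on brm-1 replicate 3 all 5 squares but only 2 of 17 circles lie above 0.

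SAUR14 (AT4G38840), SAUR15 (AT4G38850) and SAUR16 (AT4G38860) are 3 of 4 SAUR genes in a tandem cluster on chromosome 4. SAUR15 is the early cloned auxin-induced SAUR-AC1, and SAUR14, SAUR16 and SAUR50 (AT4G34760) are among the SAUR genes that respond to light, the latter pair acting in the opening of cotyledons.

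SAUR14 was even in 3 genotypes and lower in the double mutant. It gave 10.13, 10.13 and 10.11 on the wild-type arrays, 10.26, 10.47 and 9.89 in ga1-3, 10.16, 10.20 and 9.98 in brm-1, and 9.50, 9.23 and 9.04 in the double mutant. The double-mutant arrays lay below all 9 others. The single mutants differed from the wild type by -0.01 ± 0.15 (brm-1) and 0.08 ± 0.15 (ga1-3), with 95% intervals of -0.35 to 0.33 and -0.26 to 0.42, whereas the double mutant was lower than ga1-3 by 0.95 log2 units (-0.95 ± 0.15, adjusted p = 0.0011) and differed from brm-1 by -0.86 ± 0.15 (adjusted p = 0.00575).

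SAUR16 gave 9.25, 9.30 and 9.28 on the wild-type arrays, 8.70, 8.73 and 8.53 in ga1-3, 8.29, 8.41 and 7.47 in brm-1, and 6.39, 6.14 and 6.58 in the double mutant. All 4 genotypes were separate from each other on the arrays. The double mutant was below ga1-3 by a difference of -2.28 ± 0.21 (adjusted p = 5.78e-05) and below brm-1 by -1.69 ± 0.21 (adjusted p = 0.00116). SAUR15 had means of 6.91 in the wild type, 6.42 in ga1-3, 5.5 in brm-1 and 4.81 in the double mutant, the last again below ga1-3 (-1.61 ± 0.32, adjusted p = 0.00353), with no call against brm-1 (-0.69 ± 0.32, adjusted p = 0.184).

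SAUR50 was lower in the lines that carry ga1-3. Its signals were 7.92, 8.0 and 7.97 on the wild-type arrays, 6.91, 6.79 and 6.28 in ga1-3, 8.26, 8.43 and 7.47 in brm-1, and 5.84, 5.99 and 5.66 in the double mutant. The wild type lay within the range of brm-1, ga1-3 lay below both, and the double mutant below ga1-3. It was higher in brm-1 than in ga1-3 (1.40 ± 0.24, adjusted p = 0.00222) and lower in the double mutant than in brm-1 (-2.22 ± 0.24, adjusted p = 0.000479) or ga1-3 (-0.83 ± 0.24, adjusted p = 0.0207). The last call was lost without replicate 1 or 2 of ga1-3 (-0.70 and -0.76) or replicate 1 or 3 of the double mutant (-0.83 and -0.74, adjusted p up to 0.0746).

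SAUR9 (AT4G36110), which encodes another inhibitor of PP2C.D phosphatases, was lower in the lines that carry brm-1. It gave 4.89, 5.93 and 5.56 on the wild-type arrays, 6.55, 6.2 and 6.15 in ga1-3, 2.88, 2.90 and 3.43 in brm-1, and 4.48, 4.10 and 3.76 in the double mutant. The arrays of the 4 genotypes did not overlap, and both brm-1 and the double mutant lay near background, where their order cannot be read firmly. The signal was lower in brm-1 than in ga1-3 (-3.23 ± 0.27, adjusted p = 3.72e-05) and lower in the double mutant than in ga1-3 (-2.19 ± 0.27, adjusted p = 0.000289). The double mutant was called higher than brm-1 (1.04 ± 0.27, adjusted p = 0.0301), between means near background, a call that was lost without replicate 1 or 2 of either line (0.86 to 1.05, adjusted p up to 0.105) and with a replicate block (adjusted p = 0.0597). The difference of ga1-3 from the wild type, 0.84 ± 0.27, was not called.

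SAUR57 (AT3G53250), named by the platform annotation, was called higher in brm-1 and lower in ga1-3, the latter between means that both lie near background. Its signals were 3.84, 4.05 and 4.07 on the wild-type arrays, 3.10, 3.05 and 3.25 in ga1-3, 7.09, 6.31 and 6.45 in brm-1, and 3.28, 3.30 and 3.40 in the double mutant. The brm-1 arrays stood far above the other 9, all of which were near background, and the double mutant was close to ga1-3. SAUR57 was higher in brm-1 than in the wild type (2.63 ± 0.17, adjusted p = 9.98e-06) and lower in ga1-3 (-0.86 ± 0.17, adjusted p = 0.00957) and in ga1-3/brm-1 (-0.66 ± 0.17, adjusted p = 0.0131). The double mutant was lower than brm-1 (-3.29 ± 0.17, adjusted p = 4.25e-06) and not called against ga1-3 (0.20 ± 0.17, adjusted p = 0.422). Since all genotypes but brm-1 lie near background, the differences from brm-1 are no measure of the full fold change, and those among the other genotypes cannot be read as levels. Over all probe sets, 0.543% were called in opposite directions in brm-1 and ga1-3.

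SAUR56 (AT1G76190) was higher in ga1-3 alone. It gave 4.04, 3.61 and 3.24 on the wild-type arrays, 4.96, 4.92 and 5.49 in ga1-3, 3.42, 3.72 and 2.94 in brm-1, and 3.26, 3.34 and 3.53 in the double mutant. The ga1-3 arrays lay above the other 9, whose genotypes overlapped and were near background. The double mutant was lower than ga1-3 (-1.75 ± 0.24, adjusted p = 0.000522) and differed from brm-1 by 0.01 ± 0.24 (95% interval -0.53 to 0.55).

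SAUR51 (AT1G75580) had higher means in the lines that carry brm-1 than in their counterparts. It had means of 4.83 ± 0.32 in the wild type, 4.11 ± 0.12 in ga1-3, 6.10 ± 0.51 in brm-1 and 5.39 ± 0.41 in the double mutant. It was called higher in brm-1 than in ga1-3 (1.98 ± 0.27, adjusted p = 0.00069) and higher in the double mutant than in ga1-3 (1.28 ± 0.27, adjusted p = 0.00504), the only call in that direction among the 22 genes. The ga1-3 mean of SAUR51 lay near background, so its differences from ga1-3 are no measure of the full fold change. SAUR10, a growth-promoting member that the platform annotation names, stayed between 2.48 and 2.85 on every array and had no call in any comparison.

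SAUR46 (AT2G37030) and SAUR7 had their wild-type arrays above all others. SAUR46 gave 5.26, 4.55 and 5.34 on the wild-type arrays, 2.80, 2.79 and 3.20 in ga1-3, 3.30, 3.36 and 2.92 in brm-1, and 2.92, 2.93 and 2.77 in the double mutant. SAUR7 gave 3.82, 4.06 and 3.88 on the wild-type arrays, 2.96, 2.91 and 3.02 in ga1-3, 3.14, 3.11 and 2.85 in brm-1, and 2.92, 2.93 and 2.89 in the double mutant. For both genes the 3 mutants overlapped one another near background, and no difference between mutants was called.

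SAUR71 (AT1G56150), which with SAUR41 (AT1G16510) forms a subfamily that promotes cell expansion, had 8.01 ± 0.29 in the wild type, 6.86 ± 0.32 in ga1-3, 6.84 ± 0.32 in brm-1 and 6.52 ± 0.23 in the double mutant. SAUR41 differed from the wild type by -0.30 ± 0.23 in ga1-3, by -0.87 ± 0.23 in brm-1 and by -0.60 ± 0.23 in the double mutant, of which only the difference in brm-1 was called. Neither gene had a call between mutants. SAUR27, of a group tied to thermoresponsive growth of the rosette, differed by -1.0, -0.99 and -1.42 from the wild type (each ± 0.19) in brm-1, ga1-3 and the double mutant, without a call between mutants. SAUR44 (AT5G03310) had means of 5.40, 4.28, 4.0 and 3.03 in the wild type, brm-1, ga1-3 and the double mutant, which was below brm-1 (-1.24 ± 0.29, adjusted p = 0.0185) and below ga1-3 (-0.96 ± 0.29, adjusted p = 0.0256). Its means in brm-1, ga1-3 and the double mutant all lay near background, so differences among them cannot be read firmly. SAUR33 differed from the wild type by -0.70 ± 0.21 in brm-1 and -0.82 ± 0.21 in the double mutant but by -0.03 ± 0.21 in ga1-3, all near background, and it was lower in the double mutant than in ga1-3 (-0.79 ± 0.21, adjusted p = 0.0145).

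Counted over the 22 genes, 15 were called lower and 2 higher in brm-1 than in the wild type, where 7.58% and 7.09% of all probe sets were called lower and higher. In ga1-3 the counts were 13 lower and 1 higher (4.74% and 4.06% of all probe sets), and in ga1-3/brm-1 all 18 calls were lower (11.6% of all probe sets lower and 23.6% called in either direction). The median differences were -1.04, -0.97 and -1.80 for the SAUR genes against 0.01, 0.02 and -0.02 for all probe sets. These 3 comparisons share the wild-type arrays, and since all but SAUR10 and SAUR57 came from lists of changed genes, nothing is read from the counts. The 58 SAUR genes without a probe set named here had no part in them.

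**Figure D3:**
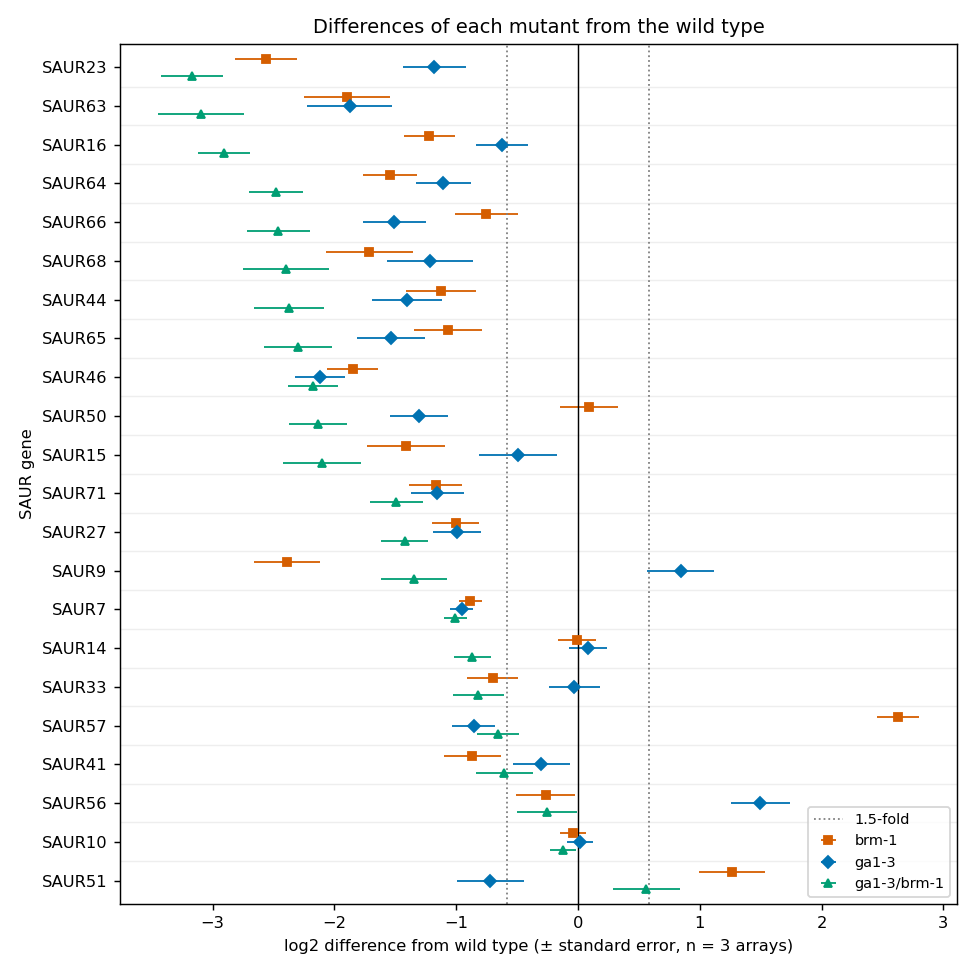
Log2 difference of each mutant from the wild type (x axis, bars are ± 1 standard error, n = 3 arrays per genotype) for the 22 SAUR genes (y axis, ordered by the difference in the double mutant). Dotted lines mark a fold change of 1.5. Most points lie left of 0, from -3.17 (SAUR23 in the double mutant), and the exceptions furthest to the right are SAUR57 and SAUR51 in brm-1 (2.63 and 1.26) and SAUR56 in ga1-3 (1.5).

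The comparisons between mutants were not used to name the genes, although most genes were listed in part for their call in the double mutant, whose arrays enter these comparisons too. Against ga1-3, the double mutant was called lower for 13 SAUR genes and higher for 1 (SAUR51), with 10.1% and 10.8% of all probe sets called lower and higher. The median difference was -0.89 for the SAUR genes and -0.03 for all probe sets. Against brm-1, the double mutant was called lower for 9 genes and higher for 1 (SAUR9), where 3.78% and 4.98% of all probe sets were called, with medians of -0.69 and -0.03. Besides those described above, the calls against ga1-3 included SAUR68 (-1.18 ± 0.35, adjusted p = 0.0263), and those against brm-1 included SAUR65 (-1.23 ± 0.28, adjusted p = 0.0163). The share of all probe sets called lower in both of these comparisons is not given here, so nothing is read from the number of such SAUR genes. SAUR63, SAUR64, SAUR66, SAUR50, SAUR14, SAUR16 and SAUR44 were called lower in both comparisons, which share the double-mutant arrays. Of these, SAUR14 and SAUR16 kept both calls with any array left out, while each of the others lost at least 1 of them without some array. For SAUR44 both single mutants and the double mutant lay near background, so its calls cannot be read firmly.

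Between the single mutants the SAUR genes were called in either direction. In brm-1 4 genes were lower than in ga1-3 (SAUR56, SAUR33, SAUR9 and SAUR23) and 3 were higher (SAUR51, SAUR57 and SAUR50), against 7.20% and 7.55% of all probe sets, and the median difference was -0.04. Most genes were listed for a call on the arrays of these lines, so nothing is read from these counts. The remaining 15 genes had no call, with adjusted p-values from 0.0629 (SAUR66) to 0.983. SAUR33 was the least secure of the 7 (-0.67 ± 0.21, adjusted p = 0.0409), and its call was lost when any array except wild-type replicates 1 and 3 was left out (adjusted p up to 0.0955).

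The interaction term asks whether the effect of brm-1 differs between plants with and without ga1-3, and it was called on the adjusted p alone. It was called for 5 of the 22 genes, 3 below and 2 above 0, where 4.48% and 4.42% of all probe sets were called. All genes but SAUR10 and SAUR57 were named through calls against the wild type on these same arrays. A gene listed for a change in only some mutants can show an interaction for that reason, so nothing is read from this count. SAUR57 had the largest of the 5, -2.43 ± 0.25 (adjusted p = 0.00122), with a brm-1 difference of 2.63 without ga1-3 and 0.20 with it. SAUR56 had -1.49 ± 0.34 (adjusted p = 0.0276), with a brm-1 difference of -0.27 without ga1-3 and -1.75 with it, and SAUR14 had -0.94 ± 0.22 (adjusted p = 0.0263), with -0.01 and -0.95. SAUR57 lay near background in all genotypes but brm-1, and SAUR56 in all but ga1-3. The brm-1 differences of 0.20 (SAUR57) and -0.27 (SAUR56) are thus between near-background means, which limits what these interactions can show. The interaction of SAUR56 lost its call without replicate 2 or 3 of the wild type, 1 or 2 of brm-1, or 1 or 2 of the double mutant (-1.48 to -1.29, adjusted p up to 0.0608), with a replicate block (adjusted p = 0.0559) and with ordinary variance (adjusted p = 0.0604). That of SAUR14 lost it without any wild-type array, replicate 1 or 2 of brm-1 or ga1-3, or replicate 3 of the double mutant (-0.95 to -0.81, adjusted p up to 0.062), and with ordinary variance (adjusted p = 0.0507). SAUR46 and SAUR7 had interactions of 1.79 ± 0.29 (adjusted p = 0.00765) and 0.83 ± 0.13 (adjusted p = 0.00707), and for both genes all 3 mutants lay near background, where the double mutant could not be read lower. For 17 genes no interaction was called. Among these SAUR16 was nearest to the threshold (-1.06 ± 0.30, adjusted p = 0.053), and SAUR23 and SAUR63 had 0.57 ± 0.36 (95% interval -0.23 to 1.38) and 0.68 ± 0.50 (-0.43 to 1.78).

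**Figure D4:**
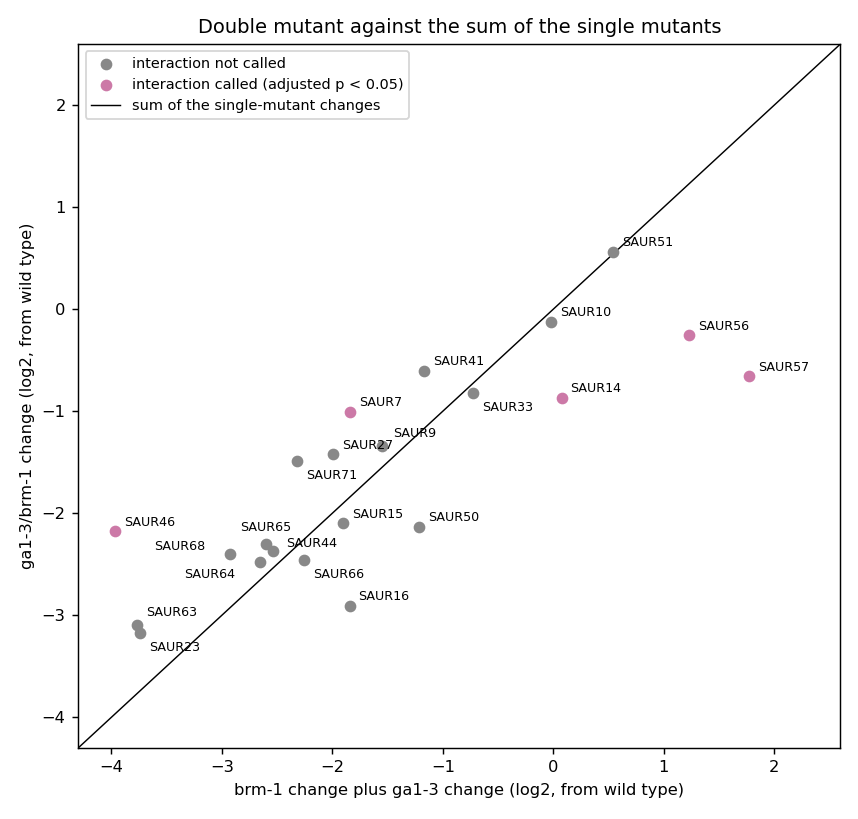
Log2 change of each SAUR gene in the double mutant from the wild type (y axis) against the sum of its changes in brm-1 and ga1-3 (x axis, log2). The line marks a double mutant equal to the sum, both axes share the wild-type arrays, and coloured points are the 5 genes with a called interaction: SAUR57, SAUR56 and SAUR14 lie below the line, SAUR46 and SAUR7 above it.

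Over all probe sets brm-1 replicate 3 lay far from the other arrays of its genotype, with a score of 37.8 on the first component of the residuals against -20.0 and -17.8 for the other brm-1 arrays and -9.80 to 6.99 for the rest. SAUR50 and SAUR16 were lowest of their group on it (7.47 for both). Without it 13 SAUR genes were lower in brm-1 than in the wild type, since SAUR41, SAUR33 and SAUR44 lost their call and SAUR66 gained one, and 2 remained higher. The double mutant was then no longer called below brm-1 for SAUR63 (-1.07, adjusted p = 0.11) and SAUR64 (-0.88, adjusted p = 0.0506), it was called below brm-1 for SAUR15 (-1.05, adjusted p = 0.0293), and the interactions of SAUR50 (-1.21) and SAUR16 (-1.36) were called in addition.

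The genes outside the SAUR family whose signals ran most like those of SAUR23 over the 12 arrays were AT2G15320 (Pearson r = 0.977), AT5G02280 (0.976), AT4G13010 (0.970), ELI3-1 (0.967) and AT1G17230 (0.967). For SAUR63 they were AT4G24700 (0.971), AT4G21870 (0.964), PKS4 (0.959), REV7 (0.957) and LOX6 (0.953). These values describe likeness over 12 arrays that share the 4 genotype means.

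Genes that act before or beside the SAUR proteins did not move in 1 direction. Of 47 such genes 24 were named here, only 5 of them by the platform annotation, so their calls against the wild type are likewise mostly a description. They comprised 7 higher and 4 lower in brm-1, 2 higher and 7 lower in ga1-3, and 5 higher and 6 lower in the double mutant, where the shares over all probe sets were 7.09% and 7.58% in brm-1, 4.06% and 4.74% in ga1-3, and in the double mutant 11.6% lower and 23.6% in either direction. Their differences had medians of 0.27, -0.31 and 0.08. The auxin efflux carriers PIN3, PIN4 and PIN7 were lower in each mutant, PIN7 most so (8.32 in the wild type, 6.31 in ga1-3, 7.18 in brm-1 and 6.54 in the double mutant). Among auxin response factors, ARF3, ARF4, ARF11, ARF16 and ARF18 were called higher in brm-1, and ARF6, ARF11 and ARF19 lower in ga1-3. In the double mutant ARF3, ARF4 and ARF16 were higher and ARF19 was lower, while ARF10 had no call in any mutant. ARF11 differed by 1.65 ± 0.17 in brm-1, by -1.40 ± 0.17 in ga1-3, where it lay near background, and by 0.22 ± 0.17 in the double mutant. TAA1, which makes the auxin precursor, differed by -0.28 ± 0.23 in ga1-3, by 0.97 ± 0.23 in brm-1 and by 2.11 ± 0.23 in the double mutant. TAR2, also listed for auxin synthesis, ran otherwise, with 0.66 ± 0.15 in ga1-3, -0.29 ± 0.15 in brm-1 and 0.00 ± 0.15 in the double mutant. AHA2, a plasma membrane proton pump, was higher in brm-1 (10.91) and the double mutant (11.44) than in the wild type (10.12). PIF5, a growth-promoting transcription factor, was called lower in these same lines (10.48 and 9.45 against 11.27). In ga1-3 PIF5 averaged 10.82, a difference of -0.44 ± 0.10 (adjusted p = 0.0151) that missed the call only by its fold change. BES1, listed in the same group as PIF5, differed by -1.04 ± 0.10 in ga1-3, by 0.56 ± 0.10 in brm-1 and by 0.14 ± 0.10 in the double mutant. Of 7 genes of the PP2C.D phosphatases, the proteins that SAURs inhibit, AT5G06750 was higher in ga1-3 (0.84 ± 0.15), AT5G66080 was lower in the double mutant (-0.94 ± 0.22) and the other 5 had no call against the wild type.

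Markers of organs were checked as far as they were named. RCA, 1 of 5 leaf markers, had means of 13.9 to 14.5 in all genotypes. Of 6 root markers 1 was named, BGLU23, with 9.87 in the wild type, 11.6 in ga1-3, 10.2 in brm-1 and 12.4 in the double mutant. Of 6 flower markers 2 were named: SEP3 with 7.22, 5.12, 8.26 and 7.62 and PI with 6.0, 6.04, 6.33 and 5.07 in the same order. The part of these differences in the SAUR values was not tested.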

How the data were processed

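Total RNA of seedling shoots, taken at an age of 18 d, was hybridised to 12 ATH1 arrays, 3 per genotype. The deposited values are log2 signals made by the authors in Partek with GC-RMA normalization, and the table of 16824 probe sets already lacks those that did not pass their detection filter. No genome build of the annotation is given in the sources used here. Arrays have no read depth, and their number limits the precision. All 12 columns were matched to samples by their labels.

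The values were used as given. The 60 control probe sets were left out, and limma 3.58.1 in R 4.3.3 was fitted to the other 16764 with genotype as the only term, followed by eBayes and Benjamini-Hochberg adjustment. The methods name a 2-factor test and do not say in the text what the second factor was. The script was tested on simulated data. The platform annotation gives 1 gene for 9268 probe sets and more than 1 for 357. Names of another 1700 came from the study's supplementary tables, whose lists for brm-1 and the double mutant were at hand in shortened form, and 5439 stayed without a name.

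The SAUR genes, the pathway genes and the markers were chosen with earlier results of these data known. Every SAUR gene for which a single-gene probe set was named is given. Values on each array are given for SAUR23, SAUR63, genes with a called interaction or opposite calls in brm-1 and ga1-3, and the 5 genes with the largest difference between the double mutant and a single mutant. For SAUR23 and SAUR63 the 5 named single-gene probe sets of other families with the highest correlation are given. Tandem clusters are SAUR genes with at most 3 other genes between neighbours in the TAIR10.1 order. Promoter and protein sequences were not analysed here.

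Alternatives were another quantile normalization, median centring, ordinary variance, an intensity trend, a replicate block, the arrays of the compared genotypes only, no fold threshold or a threshold of 2, the dimmest 10% of probe sets left out, and each array left out. Plots were made in Python 3.11.15 with matplotlib 3.10.9.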

Additional observations from a re-analysis of the deposited data

Results flagged for a closer look

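For 5 SAUR genes the interaction term passed the threshold, a test of the brm-1 difference with against without ga1-3. Nothing is read from their number, since most SAUR genes were named through calls on the same arrays. The calls of SAUR56 and SAUR14 were lost when some single arrays were left out. The interactions were -2.43 for SAUR57, -1.49 for SAUR56, -0.94 for SAUR14, 1.79 for SAUR46 and 0.83 for SAUR7 on the log2 scale. SAUR57 and SAUR56 were above background in a single genotype each, brm-1 and ga1-3, and SAUR46 in the wild type alone. SAUR7 was near background throughout and SAUR14 in no genotype.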

How the results depend on the processing

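No called difference of a SAUR gene changed direction when an array was left out. Differences near 0 that were not called did, such as that of SAUR63 between brm-1 and ga1-3 (-0.32 to 0.42). The counts of called SAUR genes stayed within 1.5 times of their main values except in the following cases. With a fold threshold of 2, 9 genes rather than 14 were called between the double mutant and ga1-3. With ordinary variance the interaction was called for 3 genes rather than 5. With each array left out in turn, the counts ranged from 14 to 18 for brm-1 against the wild type (17 with all arrays), 12 to 14 for ga1-3 (14), 18 to 19 for the double mutant (18), 10 to 14 for the double mutant against ga1-3 (14), 5 to 10 against brm-1 (10), 6 to 7 between the single mutants (7) and 3 to 7 for the interaction (5). The count against brm-1 was 5 without brm-1 replicate 1 and 6 without replicate 2 of the double mutant. The interaction count was 3 without wild-type replicate 2 or 3 or brm-1 replicate 1 or 2. The cause was not tested.

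Calls not discussed above also depended on single arrays. In the double mutant against brm-1, SAUR44 was lost without replicate 1 or 3 of the double mutant or 1 or 2 of brm-1 (-1.25 to -1.06), SAUR64 without replicate 2 or 3 of the double mutant or 1 or 3 of brm-1 (-0.92 to -0.79), and SAUR65 without replicate 1 or 2 of the double mutant or brm-1 replicate 1 (-1.19 to -1.03). Against ga1-3, replicates 1 and 3 of the double mutant decided SAUR44 (-0.97 and -0.78), and replicates 2 and 3 decided SAUR66 (-0.88 and -0.90) and SAUR68 (-0.99 and -0.93). In brm-1 against the wild type, SAUR41 was lost without replicate 1 or 3 of the wild type or 2 or 3 of brm-1 (-0.88 to -0.75), SAUR33 without replicate 2 or 3 of the wild type, ga1-3 replicate 1 or any brm-1 array (-0.72 to -0.48), SAUR44 without replicate 2 or 3 of the wild type or 3 of brm-1 (-1.13 to -0.96), and SAUR65 without replicate 1 or 2 of the wild type or 2 of brm-1 (-1.07 to -0.94).

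The replicate numbers did not pair the arrays. Deviations from the genotype means correlated between -0.198 and 0.119 over the 18 same-numbered pairs, with 1 over 0.1. With the replicate number as a block, 17, 13, 18, 13, 8, 7 and 4 SAUR genes were called, in the order of comparisons above, and over all probe sets the interaction had 969 calls rather than 1492. The interaction could not be fitted on the compared genotypes only. SAUR10, SAUR7, SAUR27 and SAUR33 lie near background in all genotypes, which limits what their differences can show.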
